A study of Mus musculus with 8 samples.

Results

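The BMP and TGF-beta genes examined here are Smad3, Smad4, Smad6, Smad7, Id1, Id2, Id3, Bmpr1a, Tgfbr2 and Bambi, 10 of the 55114 genes in the deposited count table. They were picked by name, with the values of the KO against WT comparison already known, so their differences between the genotypes are given as a description, and the counts of them under a test's threshold support nothing. RNA was sequenced from crypts, the epithelial pockets at the base of the intestinal villi that house the intestinal stem cells, of 4 Mex3a-/- mice (KO) and 4 littermate controls (labelled Ctrl, here WT). All were C57BL/6 mice, 8 weeks old, with no treatment given in the labels, and the deletion is constitutive, so that it covers every cell type of the KO mice and not the epithelium alone. Replicates 1 and 2 of each genotype carried Y-chromosome transcripts and replicates 3 and 4 carried Xist, so that each genotype held 2 mice of each kind. In GRCm38 the inhibitors are Smad7 (ENSMUSG00000025880, chr18:75367529-75395935, plus strand), Smad6 (ENSMUSG00000036867, chr9:63953076-64022059, minus strand) and Bambi (ENSMUSG00000024232, chr18:3507923-3516404, plus strand). The targets are Id1 (ENSMUSG00000042745, chr2:152736251-152737410, plus strand), Id2 (ENSMUSG00000020644, chr12:25093799-25097140, minus strand) and Id3 (ENSMUSG00000007872, chr4:136143497-136145755, plus strand). The signal transducers are Smad3 (ENSMUSG00000032402, chr9:63646767-63757994, minus strand) and Smad4 (ENSMUSG00000024515, chr18:73639009-73703780, minus strand), and the receptors Bmpr1a (ENSMUSG00000021796, chr14:34410734-34503341, minus strand) and Tgfbr2 (ENSMUSG00000032440, chr9:116084293-116175360, minus strand). All 10 genes passed the filter on low counts and were among the 16109 genes tested.

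BMP and TGF-beta ligands bind paired serine/threonine kinase receptors, which phosphorylate receptor Smads that enter the nucleus with the shared partner Smad4. BMP signalling uses Smad1, Smad5 and Smad9, while TGF-beta and activin use Smad2 and Smad3. The inhibitory Smads Smad6 and Smad7 and the decoy receptor Bambi are themselves induced by these pathways and damp them, and the Id genes are standard BMP targets. In the intestine, BMP activity is low at the crypt base and rises towards the villus, where it opposes stem cell renewal.

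Mex3a encodes an RNA-binding protein, and the sequences that carry its recognition element in the 3'UTRs of the genes are therefore shown first. The element opens with 4 bases, which are A, G or T, then G or T, then AG. It closes with 4 bases, which are T, then T, A or C, then TA. Between them lies a gap of 0 to 8 bases. In the longest coding transcript of GENCODE M21, it was counted once per starting base, so that nested matches count separately. The capitals mark the 4 bases on each side of the gap (written as DNA, 5′ to 3′, coordinates in GRCm38, each in the last exon of the transcript). They are given for the Id genes and Smad6, whose 3'UTRs held 1 or 2 matches each (the match of Id3 that is not shown is nested in the one shown).
Id1 (chr2:152737358-152737366, plus strand): ATAGtTCTA
Id2 (chr12:25094056-25094071, minus strand): AGAGttttcttgTATA
Id3 (chr4:136145272-136145281, plus strand): ATAGagTATA
Smad6 (chr9:63953347-63953359, minus strand): GGAGtcattTTTA
Smad6 (chr9:63953213-63953223, minus strand): AGAGaatTATA

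All 10 genes held the element, as did 74.2% of the 13033 genes that were tested and have a 3'UTR in the annotation, so that a match separates few genes. Bambi held 15 matches in 4004 bases, Tgfbr2 14 in 6085, Bmpr1a 13 in 3810, Smad3 12 in 3495, Smad7 4 in 1570, Smad4 3 in 1249, Smad6 2 in 448, Id3 2 in 536, Id1 1 in 563 and Id2 1 in 785. Per kilobase this is from 1.27 (Id2) to 4.46 (Smad6), against 2.74 over the pooled 3'UTR bases of those 13033 genes. Smad7, at 2.55 matches per kilobase, lay close to that pooled rate. A match is a stretch of letters and says nothing about whether MEX3A binds there.

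For the promoters, RefSeq windows of GRCm38.p6 around the start site were found for 6 of the 10 genes: Smad3, Smad6, Id2, Id3, Bmpr1a and Tgfbr2. They were searched on both strands for 3 motifs that SMAD proteins are known to bind: the palindrome GTCTAGAC, GGCGCC, and the single SMAD box GTCTG. GTCTAGAC was in 0.213% of all 32851 promoter windows, GGCGCC in 11.9% and GTCTG in 49.6%. Smad6, which encodes the BMP-selective inhibitory Smad, was the gene with the palindrome, across its RefSeq start site. Id2 and Bmpr1a held GGCGCC, and Id3 and Tgfbr2 held GTCTG. Sequences are shown for Smad6 and Id2, outputs of the pathway that held a motif other than GTCTG, with the motif in capitals. Id3, also an output, held GTCTG alone and is not shown. The Id2 window lies within the gene coordinates given above.
Smad6 (chr9:64022045-64022074, minus strand): gccgccaaagtGTCTAGACtggcatatgat
Id2 (chr12:25096307-25096334, minus strand): caggccccctgGGCGCCcagcgcacact

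The counted reads came to between 20324184 and 24726221 per WT mouse and between 23489180 and 30654105 per KO mouse. Mex3a had 236 to 328 counts in WT mice and 6 to 28 in KO mice, and fell by 4.43 on the log2 scale (standard error, SE, 0.43, edgeR's adjusted p = 0.0310). With the replicate number as a block its adjusted p was 0.126 and 0 genes were under 0.05. Without 1 mouse its adjusted p lay between 0.0271 and 0.214, and it was over 0.05 without WT replicates 1, 3 or 4 and KO replicates 1, 3 or 4. In edgeR's fit of all mice without the block, Mex3a was the only gene of the 16109 with an adjusted p under 0.05, that is 0.00621%, while 1350 genes (8.38%) had an unadjusted p under 0.05. Over all tested genes the median log2 fold change was -0.016 and the median of its size 0.13. The p-values measure the spread between separate mice.

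Levels between genes were compared as FPKM, which scales the reads of a gene by its length and by the library size. Id1 had the highest level in WT crypts, at 97.5 ± 13.5 FPKM (SD, n = 4 mice), followed by Id3 at 45.8 ± 5.39 and Smad4 at 37.2 ± 2.81. Bmpr1a, which encodes a type I BMP receptor, stood at 17.2 ± 0.675 FPKM. Smad3 (9.84 ± 0.312) and Id2 (8.94 ± 1.42) came next. Smad7 (5.51 ± 0.338), Smad6 (5.25 ± 0.811), Bambi (4.60 ± 2.54) and Tgfbr2 (3.20 ± 0.911) were lowest. The ranges of the WT mice overlapped between the neighbours Id3 and Smad4, Smad3 and Id2, Smad7 and Smad6, Smad6 and Bambi, and Bambi and Tgfbr2, and did not between the others. Id3 nonetheless lay above Smad4 within each of the 8 mice. In KO crypts the order was the same except that Id2 (12.3 ± 2.15 FPKM) stood above Smad3 (8.94 ± 0.445) and Tgfbr2 (3.35 ± 0.816) above Bambi (2.99 ± 1.27).

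**Figure D1:**
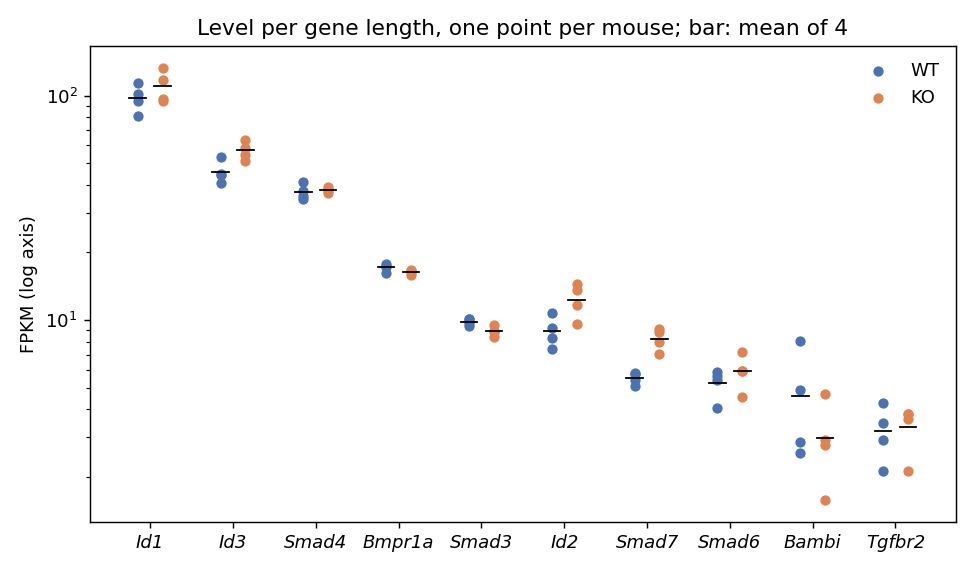
FPKM of the 10 genes on a log axis, ordered by their mean in WT crypts. Each point is 1 mouse (4 WT, 4 KO) and each bar the mean of 4, and the means run from 97.5 FPKM for Id1 to 3.20 for Tgfbr2 in WT.

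Smad7 encodes an inhibitory Smad that blocks both TGF-beta and BMP receptors. Smad7 had 505, 525, 532 and 636 counts in the WT mice, by replicate number, and 759, 1063, 839 and 1201 in the KO mice. Scaled to library size by TMM, these were 23.3, 24.5, 26.0 and 26.6 CPM (counts scaled to a library of fixed size) in WT and 31.9, 41.2, 36.3 and 39.9 in KO. Every KO mouse lay above every WT mouse, and the WT mice were close together, with a coefficient of variation of 5.81% against 11.3% in KO. The mean was 25.1 ± 1.46 CPM in WT and 37.3 ± 4.20 in KO (SD over 4 mice of each genotype). On the log2 scale KO exceeded WT by 0.57 (SE 0.10), a level 48.7% higher. Smad7 alone of the 10 genes did not overlap between the genotypes, where 2.17% of all tested genes lay higher in KO without overlap. Lower without overlap were 0 of the 10 (1.87% of all tested genes), which gives 1 in either direction (4.05%). The log2 fold change was 0.62 (SE 0.18) among the mice with Y-chromosome transcripts and 0.53 (0.10) among those with Xist. It lay between 0.52 and 0.64 when 1 mouse was left out.

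Smad6, the partner inhibitor that acts mainly on BMP receptors, had 18.3, 13.1, 18.9 and 17.5 CPM in WT and 18.9, 14.7, 19.1 and 23.2 CPM in KO. The genotypes overlapped, although KO was above WT in all 4 pairs of mice with the same number. No label says that the numbers mark a litter. The log2 fold change of 0.16 was no larger than its SE of 0.17, and without KO replicate 4 it was 0.05, and without WT replicate 2 0.06. Summed per mouse, Smad6 and Smad7 came to 9.46 to 11.6 FPKM in WT and 13.0 to 16.0 in KO. The receptor Smads (Smad1, Smad2, Smad3, Smad5 and Smad9) came to 36.2 to 38.0 and 35.3 to 38.0 FPKM. The ratio of the inhibitory to the receptor Smads within a mouse, which does not depend on the scaling of the libraries, was 0.282, 0.260, 0.321 and 0.306 in WT and 0.341, 0.382, 0.394 and 0.439 in KO. The genotypes did not overlap in it. The ratio of Smad7 to Smad4, 0.149 ± 0.0185 in WT and 0.217 ± 0.0238 in KO (SD over 4 mice of each genotype), did not overlap either. Both ratios contain Smad7 and are no separate evidence beside its own values. The ratio of Smad7 to Smad6 did overlap, at 1.07 ± 0.184 in WT and 1.44 ± 0.377 in KO.

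Bambi encodes a transmembrane protein that resembles a type I receptor but lacks the kinase, and it was the most variable of the 10 genes. It had 41.6, 13.1, 14.6 and 24.9 CPM in WT replicates 1 to 4 and 14.9, 8.03, 14.2 and 23.7 in KO replicates 1 to 4. WT replicate 1 was the highest mouse, and the highest WT mouse was 3.17 times the lowest. The log2 fold change was -0.63 (SE 0.41), and -0.21 without WT replicate 1. Among the mice with Y-chromosome transcripts it was -1.25 (SE 0.57), and among those with Xist -0.07 (0.35), a difference that did not pass the test of an interaction (-1.20 on the log2 scale, edgeR's adjusted p = 0.974). Each KO mouse was below the WT mouse of its number, and in that respect Bambi differed in sign from the other inhibitors Smad6 and Smad7.

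**Figure D2:**
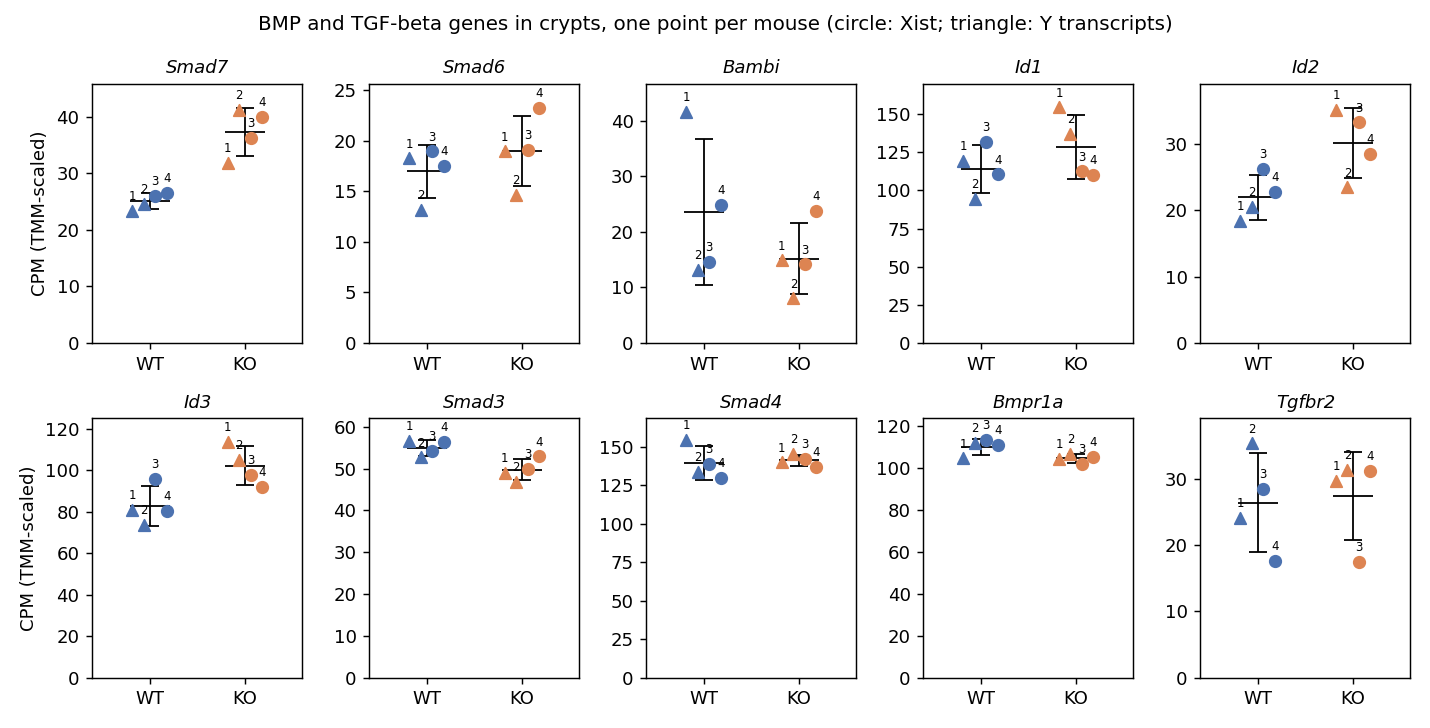
CPM of each gene in each mouse, with the replicate number beside the point, on axes that start at 0. Circles are mice with Xist and triangles mice with Y-chromosome transcripts, and the bars give the mean ± SD of 4 mice. Smad7 is the panel in which all KO points (31.9 to 41.2 CPM) lie above all WT points (23.3 to 26.6).

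The Id genes encode helix-loop-helix proteins without a DNA-binding region, which hold back the transcription factors that pair with them. Id2 had 18.3, 20.5, 26.3 and 22.8 CPM in WT and 35.2, 23.4, 33.2 and 28.5 in KO. Of the KO mice 3 lay above the highest WT mouse, and KO replicate 2 did not. On the log2 scale Id2 differed by 0.45 (SE 0.15). Id3 had 81.1, 73.6, 96.0 and 80.3 CPM in WT and 114, 105, 98.0 and 92.1 in KO. Here KO replicate 4 lay under the highest WT mouse, and the log2 fold change was 0.31 (SE 0.10). In all 4 same-numbered pairs KO was above WT for both Id2 and Id3.

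Id1, the most abundant of them, had 119, 94.7, 132 and 110 CPM in WT and 154, 137, 112 and 110.2 in KO. The genotypes overlapped, and the log2 fold change was 0.17 (SE 0.13), or 0.07 to 0.26 when 1 mouse was left out. Both KO mice with Y-chromosome transcripts were above both WT mice of that kind (log2 fold change 0.46, SE 0.16), while among the mice with Xist the value was -0.13 (0.10). Id3 had 0.51 (0.12) and 0.10 (0.11) in the same groups, and Id2 0.60 (0.23) and 0.32 (0.13). The difference between the kinds of mice did not pass the test of an interaction for Id1 (0.57 on the log2 scale, edgeR's adjusted p = 0.974), Id3 (0.39, adjusted p = 0.974) or Id2 (0.26, adjusted p = 0.974). Before adjustment edgeR's p of this test was 0.0230 for Id1, 0.0442 for Id3 and 0.389 for Id2, and 3.82% of all tested genes were under 0.05. The sum of the Id genes was 130.2 to 178 FPKM in WT and 158 to 211 in KO, and overlapped.

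The signal-transducing genes differed by little. Smad3, the TGF-beta receptor Smad, had 56.6, 52.7, 54.2 and 56.4 CPM in WT and 48.9, 46.9, 50.0 and 52.9 in KO. Of the KO mice 3 lay under the lowest WT mouse, and KO replicate 4 lay just above it. In each same-numbered pair KO was below WT, and the log2 fold change was -0.15 (SE 0.06). Smad4, the shared partner, had 155, 134, 139 and 129.7 CPM in WT and 140.1, 145, 142 and 137 in KO, at 0.02 (SE 0.07) on the log2 scale. All KO values of Smad4 lay inside the WT range.

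Of the receptors, Bmpr1a had 104, 112, 113 and 111 CPM in WT and 104, 107, 102 and 105 in KO. It varied least of the 10 genes between mice (coefficient of variation 3.46% in WT and 1.96% in KO), and its log2 fold change was -0.07 (SE 0.06). In each same-numbered pair KO was below WT, by little in replicate 1 (104.2 against 104.4 CPM). Tgfbr2, the type II receptor that binds TGF-beta, had 24.2, 35.4, 28.6 and 17.6 CPM in WT and 29.7, 31.4, 17.5 and 31.3 in KO. It varied widely in both genotypes, at 0.06 (SE 0.24) on the log2 scale, and took either sign when 1 mouse was left out (-0.10 to 0.23).

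**Figure D3:**
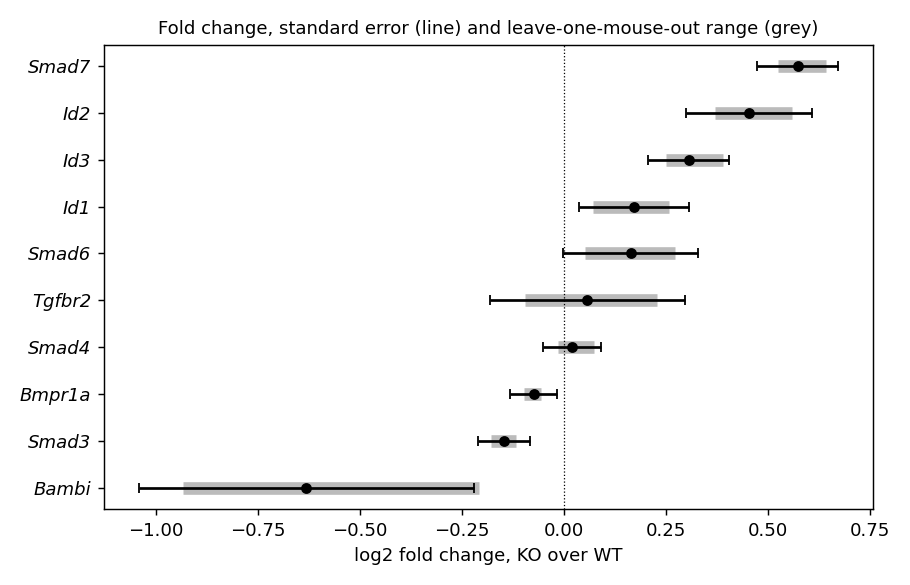
Log2 fold change (KO over WT) of the 10 genes, with black lines for ± 1 standard error of edgeR's fit and grey bars for the range over 8 fits that each leave out 1 mouse. Smad7 is highest at 0.57 and Bambi lowest at -0.63, with the widest grey bar.

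Of the 10 genes, 7 had a log2 fold change above 0, where 46.1% of all tested genes did. Their median was 0.11. By edgeR's quasi-likelihood test 0 of the 10 had an adjusted p under 0.05 (0.00621% of all tested genes), and by DESeq2 1 did, Smad7 (0.577% of all tested genes). A log2 fold change of at least 0.3 was seen in Smad7, Id2 and Id3 (12.4% of all tested genes), and the same 3 had an unadjusted p under 0.05 in DESeq2 (9.08%). Before adjustment, edgeR put 3 under 0.05 as higher, namely Smad7, Id2 and Id3 (5.33% of all tested genes), and 1 was lower, Smad3 (3.05%). With the replicate number as a block 3 were higher and 0 lower (11.3% of all tested genes in either direction). These counts are of genes chosen with the same comparison known, and nothing is read from them.

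The crypt label was set against marker genes. The summed level of the 6 epithelial markers (Epcam, Vil1, Cdh1, Krt8, Krt19 and Cldn7) was 8685 to 9311 CPM in WT and 9913 to 11506 in KO. Fibroblast markers (7 genes, among them Col1a1 and Pdgfra) summed to 8.83 to 16.4 CPM in WT and 12.1 to 19.5 in KO, with Pdgfra, Lum and Foxl1 at 0 counts in some mice. Smooth muscle (5 genes) came to at most 2.18 CPM, endothelial markers (4 genes) to at most 5.89 and myeloid markers (5 genes) to 24.3 to 34.0 CPM in any mouse. The 4 markers of B and plasma cells summed to 13.3 to 24.6 CPM in WT and 14.6 to 23.6 in KO.

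The 5 stem cell markers (Lgr5, Olfm4, Ascl2, Smoc2 and Axin2) summed to 4244 to 4977 CPM in WT and 3151 to 3919 in KO. The 8 markers of villus enterocytes, among them Apoa1 and Krt20, summed to 1283 to 2735 CPM in WT and 1902 to 6117 in KO. The 5 T cell markers (Ptprc, Cd3e, Cd3g, Cd8a and Cd2) summed to 10.0 to 21.3 CPM in WT and 14.2 to 44.4 in KO. Before adjustment, 3 of the 5 stem cell markers were lower, and 3 of the 6 epithelial, 2 of the 8 villus and 2 of the 4 tested T cell markers were higher (unadjusted p under 0.05 in edgeR), while 0 passed adjustment. Of all tested genes 3.05% were lower and 5.33% higher at that threshold. The stem cell and epithelial sums did not overlap between the genotypes. In bulk RNA, fewer cells of a type and less RNA per cell cannot be told apart. The part of these cells in the level of Smad7 or the Id genes was not tested. In KO replicates 1 to 4, where Smad7 had 31.9, 41.2, 36.3 and 39.9 CPM, the villus sum was 1902, 2248, 6117 and 3974 CPM and the T cell sum 14.2, 16.4, 44.4 and 35.0 CPM, inside the WT range in replicates 1 and 2 and above it in replicates 3 and 4. The stem cell sum lay below the WT range and the epithelial sum above it in all 4.

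The other genes of the pathways were taken from a list of 90, sorted by role and drawn up from the pathways with earlier results of these data known. Of these, 64 passed the filter on low counts and 26 did not. After adjustment 0 of the 64 passed edgeR's test at 0.05 and 2 passed with DESeq2 (Cdkn1a and Tgfbi). Before adjustment, edgeR put 4 under 0.05 as higher and 1 as lower. That is 7.81% of the 64, near the 8.38% of all tested genes. With the replicate number as a block 7 were higher and 1 lower, Dcn, Bmp2 and Skil being added, and that fit put 11.3% of all tested genes under 0.05. The median log2 fold change of the 64 was 0.02, and the median of its size 0.10.

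Of 23 ligands, 12 were tested and 0 had an unadjusted p under 0.05. Bmp3, an atypical BMP that opposes the others, was the most abundant at 9.24 FPKM over all mice, with 104, 64.2, 53.7 and 71.8 CPM in WT and 70.3, 62.8, 60.1 and 63.5 in KO. WT replicate 1 was high, and the log2 fold change was -0.19 (SE 0.18), or 0.02 without that mouse. Bmp7 followed at 5.72 FPKM, at -0.17 (SE 0.16) on the log2 scale, or -0.27 to -0.05 when 1 mouse was left out. Bmp2, a BMP made by villus epithelium, had 6.28, 6.91, 8.15 and 10.7 CPM in WT and 6.76, 10.5, 19.3 and 14.3 in KO. KO replicates 3 and 4 were above every WT mouse, and the log2 fold change was 0.67 (SE 0.31, unadjusted p = 0.0557, edgeR's adjusted p = 0.604). Its unadjusted p was under 0.05 with DESeq2 (0.0273), no filter (0.0265), the replicate block (0.0184), the Xist/Y group as a term (0.0123), without WT replicate 4 (0.0315) and without KO replicate 1 (0.00728), and its adjusted p was at least 0.245 in these. KO replicates 3 and 4 were also the mice with villus marker sums (6117 and 3974 CPM) and T cell marker sums (44.4 and 35.0 CPM) above the WT range, and the part of those cells in Bmp2 was not tested. The 11 ligands that were not tested had at most 20 counts in any mouse. Of 19 extracellular antagonists and carriers, 10 were tested, and the other 9, among them Nog and Grem1, had at most 9 counts in any mouse.

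Among these, Nbl1, a secreted BMP antagonist of the DAN family, had 4.62, 7.24, 6.93 and 10.6 CPM in WT and 9.45, 11.3, 18.6 and 15.1 in KO. KO replicate 1 lay below the highest WT mouse, but KO was above WT in all 4 same-numbered pairs. On the log2 scale the difference was 0.88 (SE 0.28, unadjusted p = 0.0110, edgeR's adjusted p = 0.518). Nbl1 too was highest in KO replicates 3 and 4, the mice with the high villus and T cell marker sums, whose part in it was not tested. Both mice carried Xist. Over both genotypes Nbl1 was lower in the mice with Y-chromosome transcripts, at -0.63 (SE 0.19, edgeR's unadjusted p = 0.0102, adjusted p = 0.159) on the log2 scale. The most abundant were Thbs1, an activator of latent TGF-beta, with a log2 fold change of 0.23 (SE 0.32), and Twsg1, a BMP-binding protein, with -0.11 (0.08). Without 1 mouse Thbs1 lay between 0.04 and 0.46 and Twsg1 between -0.18 and -0.08. Without WT replicate 1 the unadjusted p of Twsg1 was 0.0228 by edgeR (adjusted p = 0.707).

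Of 14 other receptors and co-receptors, 13 were tested. Rgmb, which encodes a BMP co-receptor also called Dragon, had 211, 192, 145 and 181 CPM in WT and 155, 138, 129.2 and 138 in KO. WT replicate 3 lay below KO replicate 1, and each KO mouse was below the WT mouse of its number. The log2 fold change was -0.38 (SE 0.11, unadjusted p = 0.00860, edgeR's adjusted p = 0.518). The remaining 12 had log2 fold changes between -0.24 and 0.15, among them Acvr1b, an activin type I receptor and the most abundant of the list at 26.2 FPKM, with 0.03 (SE 0.10).

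The 4 other Smad genes had log2 fold changes from -0.12 (Smad9) to 0.05 (Smad5). Smad1 (10.6 FPKM) gave -0.02 (SE 0.07), and Smad2 (10.6 FPKM) gave 0.04 (0.07). The 20 intracellular regulators, which include the ubiquitin ligases Smurf1 and Smurf2 and the repressors Ski and Skil, had log2 fold changes from -0.18 (Tgif2) to 0.23 (Skil), and 0 had an unadjusted p under 0.05. Strap, a protein that acts with Smad7 on TGF-beta receptors, was the most abundant at 47.5 FPKM, with -0.03 (SE 0.08), and Fkbp1a, which binds type I receptors, gave 0.05 (0.09) at 46.2 FPKM.

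Of 10 other targets, 5 were tested. Unadjusted p-values were under 0.05 for 3, all higher in KO, as for 5.33% of all tested genes. Cdkn1a, which encodes the cell cycle inhibitor p21 and is also a p53 target, had 65.4, 52.7, 58.9 and 76.7 CPM in WT and 90.2, 89.8, 111 and 135 in KO. Its genotypes did not overlap, and the log2 fold change was 0.75 (SE 0.16, unadjusted p = 0.000920, edgeR's adjusted p = 0.429). It was the 1 gene of the 64 higher in KO without overlap (2.17% of all tested genes). KO replicates 3 and 4, highest in Cdkn1a too, had the high villus and T cell marker sums. The part of those cells in it was not tested. Both mice carried Xist. Over both genotypes Cdkn1a was lower in the mice with Y-chromosome transcripts, at -0.32 (SE 0.12, edgeR's unadjusted p = 0.0237, adjusted p = 0.215) on the log2 scale. Cdkn2b, which encodes the cell cycle inhibitor p15, had 23.1, 30.6, 29.2 and 33.8 CPM in WT and 33.3, 46.8, 58.1 and 43.6 in KO. KO replicate 1 lay just under WT replicate 4, and the log2 fold change was 0.64 (SE 0.17, edgeR's adjusted p = 0.518). KO replicate 3, highest in Cdkn2b, also had the highest villus and T cell marker sums, and the part of those cells was not tested.

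Tgfbi, a secreted matrix protein named for its induction by TGF-beta, had 63.6, 49.6, 71.6 and 102 CPM in WT and 101, 98.7, 232 and 191 in KO. KO replicates 3 and 4 were far above the rest, and the other KO mice lay just under WT replicate 4. Its log2 fold change was 1.12 (SE 0.32, edgeR's adjusted p = 0.518), and 0.86 without KO replicate 3. KO replicates 3 and 4 were also the mice with the highest T cell (44.4 and 35.0 CPM) and villus (6117 and 3974 CPM) marker sums, and both carried Xist. Over both genotypes Tgfbi was lower in the mice with Y-chromosome transcripts, at -0.85 (SE 0.15, edgeR's adjusted p = 0.0800) on the log2 scale, and KO over WT it was 0.83 (SE 0.15) in these mice and 1.27 (SE 0.19) in those with Xist. The part of those cells in Tgfbi was not tested. The other tested targets were Id4, with a log2 fold change of 0.36 (SE 0.23), and Atoh8, with -0.05 (0.24).

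**Figure D4:**
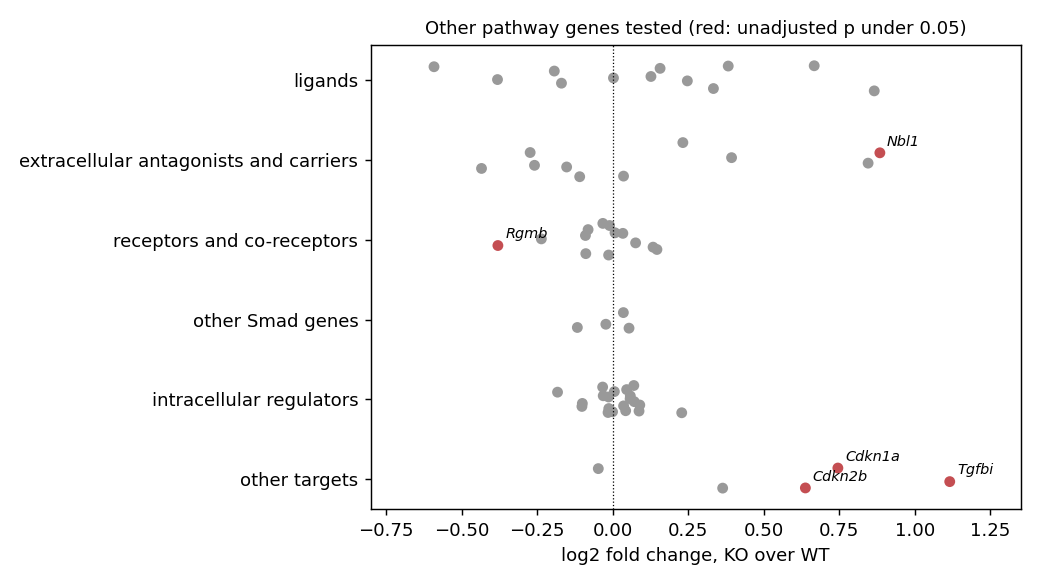
Log2 fold change (KO over WT) of the 64 tested pathway genes other than the 10, by role, 1 point per gene; vertical scatter within a role has no meaning. The 5 red points have an unadjusted p under 0.05, and the Smad genes and intracellular regulators lie between -0.18 and 0.23.

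Genes whose pattern over the 8 mice was most like that of Smad7 were looked for among 10479 protein-coding genes, by the root mean square difference of log2 CPM after each gene was centred on its own mean. Serpinb1a, a protease inhibitor, came closest (0.107), followed by Dok4, an adaptor protein (0.108), Trpm6, a magnesium channel (0.112), Fcgbp, a goblet cell mucus protein (0.119), and Pfkp, a phosphofructokinase of glycolysis (0.121). The median over all genes searched was 0.345. Serpinb1a had 219.8, 239, 261 and 244 CPM in WT and 299, 369, 388 and 325 in KO. For Id1 the closest were Tmed5 (0.097), Ccnb2 (0.106), Tubb2a (0.106), Abcb8 (0.113) and Ripk3 (0.114), against a median of 0.255. The likeness is a description over 8 mice that share their libraries.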

How the data were processed

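Crypt RNA of 8 mice was sequenced on an Illumina platform. The table the authors deposited holds unnormalized counts, made with HISAT2 2.0.5 and featureCounts 1.5.0-p3 according to the submitters' processing notes, and FPKM values, in which counts are scaled by gene length and by 1 total per mouse. Whether counting used strand is not given in the sources used here. The deposited fold changes and p-values of the authors' own comparison were not used. Gene coordinates are those of GRCm38 (54037 of 55114 genes share start and end with GENCODE M21).

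Counts were compared with edgeR 4.0.16 in R 4.3.3 (filterByExpr with a minimum count of 10, TMM, quasi-likelihood test, genotype as the only term, Benjamini-Hochberg adjustment). Standard errors are the size of the log2 fold change over the square root of F. The 10 genes, the lists and the naming rule were chosen with earlier results of these data known. Besides the 10 genes, the rule named, per role list, the 2 genes with the highest mean FPKM and up to 5 with the smallest unadjusted p under 0.05, and, for Smad7 and Id1, the 5 protein-coding genes of nearest pattern with a mean log2 CPM of at least 2. Dcn, Bmp2, Bmp4, Skil, Tgif2, Smad5, Smad9, Id4, Atoh8, Nog and Grem1 were named outside it, after their values were seen. Ccn2 is Ctgf in the table. Alternatives were DESeq2 1.42.0, other scalings and filters, limma 3.58.1 on log2(FPKM + 1) or log2(FPKM + 0.1) (mean FPKM of at least 0.1 or no filter), the replicate number as a block, the Xist/Y group, and leaving out each mouse. Tests were checked on simulated data.

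After subtraction of genotype means, the WT and KO mouse of a number correlated with r from 0.129 to 0.501 across genes (4 pairs, or 0.0873 to 0.481 on autosomes). The numbers were therefore used to describe pairs, and as a block in an alternative fit, while the main fit had genotype as its only term. No label says that they mark a litter, and the mice of a number also share the Xist/Y kind. No 2 libraries of a genotype agreed within sampling noise (chi-square over its degrees of freedom from 23.4 to 86.3). Figures were drawn with matplotlib 3.10.9.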

Additional observations from a re-analysis of the deposited data

Results flagged for a closer look

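Among the 10 genes and the 14 pathway genes named, each genotype was searched for a mouse that stood apart, 48 groups of 4 in all, by its gap to the nearest mouse over the whole range (Dixon's test at 95%). Chance alone would single out about 1 group in 20, here 2.4, and 3 were found. Tgfbr2 was low in KO replicate 3 (17.5 CPM, ratio 0.877), Thbs1 was low in KO replicate 2 (59.4 CPM, ratio 0.845), and Twsg1 was low in WT replicate 1 (49.2 CPM, ratio 0.865).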

How the results depend on the processing

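Smad7, Smad6, Id2, Id3, Smad3, Bmpr1a and Bambi kept their sign in all 20 alternatives. Among the mice with Xist alone Id1 was -0.13, Id3 0.10, Bmpr1a -0.12 and Bambi -0.07, and among those with Y-chromosome transcripts they were 0.46, 0.51, -0.03 and -1.25. Smad4 changed sign in 2 alternatives and Tgfbr2 in 3. Among the 10 genes, Smad3 was the 1 that was lower at an unadjusted p under 0.05, and the number lower was 0 with DESeq2, RLE factors, no filter, at least 10 counts in every mouse, limma on log2(FPKM + 1) or log2(FPKM + 0.1) with the filter, and the replicate block, and 0 to 1 without 1 mouse (1 without WT replicate 2 or KO replicate 4, 0 without any of the others). With DESeq2, 1 of the 10 genes and 2 of the other pathway genes had an adjusted p under 0.05, against 0 and 0. The pathway genes under an unadjusted p of 0.05 numbered 8 (7 higher) with no filter, with limma on log2(FPKM + 1) without a filter, and with the replicate block. Without 1 mouse they numbered 5 to 9 (4 to 8 higher, 1 to 2 lower), with 8 without WT replicate 4 and 9 without KO replicate 1. Over all genes, the number with an adjusted p under 0.05 was 93 with DESeq2, 2 with no filter, 0 with at least 10 counts in every mouse (which leaves out Mex3a), 4 with limma on log2(FPKM + 0.1), 3 with limma without a filter, 0 with the replicate block, 4 with the Xist/Y group as a term and 0 to 4 without 1 mouse (4 without WT replicate 2). At an unadjusted p under 0.05 it was 846 (without KO replicate 3) to 2133 (without KO replicate 1). Beside Mex3a, Smad3, Dcn, Bmp2 and Skil, the replicate block changed no call among the 10 genes and the other pathway genes named, and the causes were not tested. The 26 pathway genes left out by the filter on low counts had at most 20 counts in any mouse, and with no filter the unadjusted p of Bmp4 was 0.0422 by edgeR.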
